A study of Mus musculus with 6 samples.

Results

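The genes described here encode the secreted and membrane metalloproteases that cut extracellular matrix, together with their inhibitors. They were chosen by name from the protein-coding genes of the count table, and 45 of its 25700 genes belong to them: 17 matrix metalloproteinase (MMP) genes, 19 ADAMTS proteases, 5 ADAMTS-like (ADAMTSL) genes and all 4 tissue inhibitors of metalloproteinases (TIMP). RNA was sequenced from the proximal incisor, where the stem cells of this ever-growing mouse tooth lie, of 5-week-old C57BL/6 mice, 3 per genotype. The sample titles name the tissue dental mesenchyme. Control mice were Runx2fl/fl, with a floxed Runx2 gene and no Cre, and the others, called cKO, were Gli1-CreERT2;Runx2fl/fl, whose tamoxifen-inducible Cre works where Gli1, a hedgehog pathway factor, is transcribed. Per the labels, both genotypes were given tamoxifen daily for 3 days when 1 month old, and the tissue dates from 1 week later. The question was which transcripts of the proximal incisor differ once Runx2, a transcription factor of bone and tooth mesenchyme, is deleted from these cells. Because controls carried no Cre, Runx2 loss and the Gli1-CreERT2 allele or its activation cannot be told apart.

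MMPs are zinc enzymes made as inactive precursors. Collagenases such as Mmp13 and Mmp8 cut fibrillar collagen, gelatinases (Mmp2, Mmp9) cut denatured and basement membrane collagen, and membrane-type MMPs act at the cell surface. ADAMTS proteases process procollagens or cut proteoglycans and other matrix proteins, ADAMTSL proteins resemble them but lack the catalytic domain, and TIMPs bind and block the active site. In teeth and bone these enzymes remodel the matrix while hard tissue forms, and Mmp13 is a classical target of Runx2 in osteoblasts and hypertrophic cartilage cells.

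Total estimated counts lay between 53525185 and 66694240 per library, so 1 count was worth 0.0149 to 0.0186 CPM (a library's counts scaled to 1e06 in total, with TMM factors). Runx2 was at 79.7, 77.7 and 81.2 CPM in controls 1 to 3 against 62.6, 54.0 and 49.0 CPM in cKO 1 to 3 (log2 difference -0.53, SE 0.0892, edgeR quasi-likelihood test, adjusted p = 0.0714), so every cKO value lay below every control value but the gene did not pass the threshold of 0.05. All 6 dental mesenchyme markers checked were present, with sums of 399.6 to 561.8 CPM per mouse. Although the sample titles name mesenchyme, dental epithelium markers were present too, at 1753 to 2873 CPM, and the reason was not tested. Some libraries stood apart. Control 1 was the 1 male by Xist and Ddx3y and held 336.3 CPM of 6 skeletal muscle markers, against 12.1 to 15.5 CPM in the other mice. The 6 late enamel markers summed to 111.6, 1798 and 98.1 CPM for controls against 2634, 1451 and 1112 CPM for cKO mice, so control 2 lay among the cKO mice. The 8 neutrophil markers summed to 1.34 to 2.80 CPM in the controls, 44.4 and 19.8 CPM in cKO 1 and cKO 2, and 2.19 CPM in cKO 3. Bulk tissue was sequenced, so fewer cells of a type and less RNA per cell cannot be told apart in any result.

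Across the families, the sizes of difference ranged from a 9.76-fold lower mean level of Mmp13 in cKO mice to an 8.86-fold higher one of Mmp12, while the values of Mmp2, Mmp14 and Timp2, the genes of highest level per length, overlapped between genotypes. Of the 45 genes, 41 passed the filter on low counts, and each of these had at least 10 counts in some library of both groups. None of the 41 passed the edgeR threshold (adjusted p from 0.0614 to 0.995), at which 5 of 19264 tested genes passed, or 0.0260%. Without adjustment, 18 of 41 genes (43.9%) had an edgeR p under 0.05, against 17.3% of all tested genes, with 13 higher (8.71% of all) and 5 lower (8.55%) in cKO mice. DESeq2 called 10 of the 40 genes to which it gave an adjusted p, 25.0%, against 7.68% of all genes, 6 of them higher (4.02%) and 4 lower (3.66%). The groups did not overlap for 18 of the 41 genes, 43.9%, against 23.1% of all genes, with cKO higher for 13 (11.1% of all genes). Adamts16, Adamts5, Mmp13, Mmp17 and Mmp9 were lower in every cKO mouse, as were 2306 of the 19264 tested genes. These 5, or 12.2% of the 41, were thus about the share found among all tested genes. The median log2 difference of the 41 was 0.20 and that of all tested genes 0.00, and 28 of 41 lay above 0 against 50.0% of all genes. By family, the median was 0.11 for the 14 tested MMPs, 0.24 for the 18 tested ADAMTS genes, 0.42 for the 5 ADAMTSL genes and 0.17 for the 4 TIMPs.

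**Figure D1:**
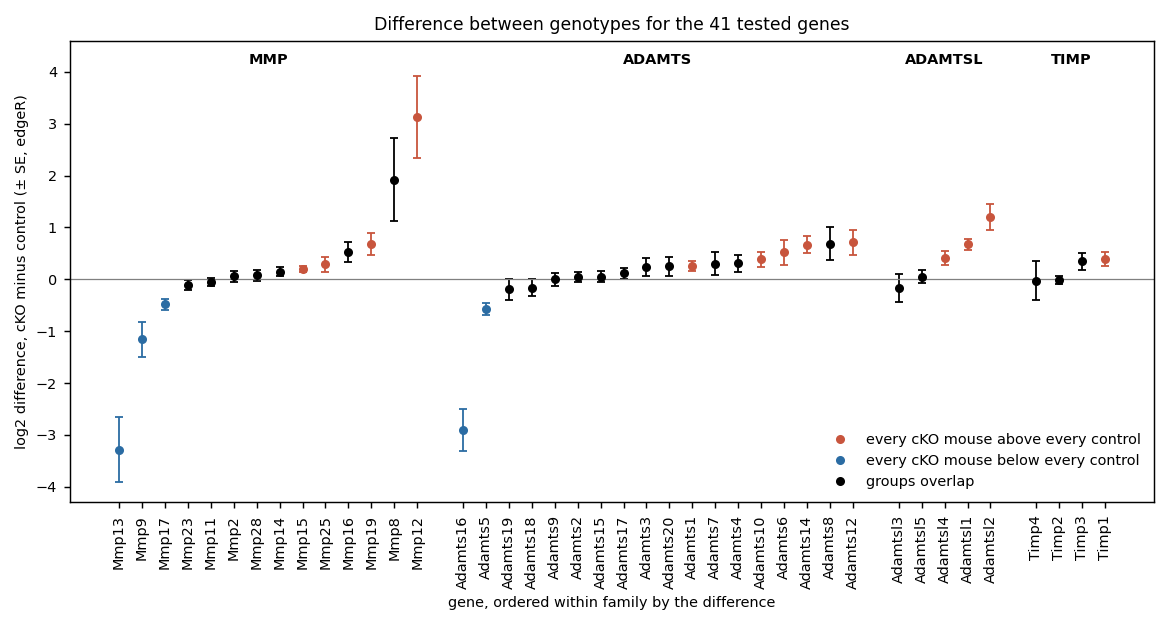
Log2 difference between cKO and control mice (vertical axis, points with SE from edgeR) for each of the 41 tested genes, ordered within family. Mmp13 (-3.29) and Adamts16 (-2.91) lie far below 0, Mmp12 (3.13) far above it, and red or blue points mark the 18 genes whose groups do not overlap.

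Mmp13, the main collagenase of mouse hard tissues (chromosome 9, 7272514 to 7283331, build mm10), was at 292.6, 81.3 and 491.9 CPM in controls 1 to 3 against 33.4, 36.1 and 19.2 CPM in cKO 1 to 3. All cKO mice were lower than all controls, yet the controls spread 6.05-fold among themselves. The means were 288.6 ± 205.3 and 29.6 ± 9.03 CPM (SD, n = 3 each), with a log2 difference of -3.29 (SE 0.624, edgeR adjusted p = 0.0831). Without control 2 it passed (-3.73, edgeR adjusted p = 0.0307). It was then the 1 gene to do so of the 42 described here that were tested, or 2.38%, against 0.366% of all genes then tested. Without control 3 the log2 difference was -2.66 (edgeR adjusted p = 0.184). It also passed with DESeq2 (adjusted p = 0.000375, the lowest of its alternatives, which ran up to 0.190). Control 2, the control of lowest Mmp13, was also the one with high late enamel markers. Of those 6 markers only Csn3 had no overlap between groups (higher in cKO mice), and none was at 0 in any library, and their part in the Mmp13 difference was not tested. Gli1 was likewise lowest in control 2 among controls, at 158.7, 89.7 and 206.9 CPM against 75.0, 77.9 and 70.6 CPM. It was lower in every cKO mouse (log2 difference -1.03, edgeR adjusted p = 0.131, DESeq2 adjusted p = 0.00183). For Gli1, which drives the Cre, Runx2 loss and the Gli1-CreERT2 allele cannot be told apart either.

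The stretch of 250 bases before the RefSeq start of Mmp13 is shown because it holds both of the motifs searched. These were the RUNX core TGTGGT, whose reverse complement is ACCACA, and the AP-1 core TGANTCA, each on either strand and not overlapping each other. The same stretch of Mmp12, the next of these genes along the chromosome and higher in every cKO mouse, and of Mmp14, abundant and overlapping between genotypes, are shown for comparison. The windows are chr9:7272264-7272513, chr9:7347124-7347373 (the second of 2 RefSeq starts of Mmp12) and chr14:54431348-54431597 in GRCm38.p6, all on the plus strand, with motif matches in capitals. The window of the first Mmp12 start, chr9:7344147-7344396, held neither motif and is not shown.
Mmp13: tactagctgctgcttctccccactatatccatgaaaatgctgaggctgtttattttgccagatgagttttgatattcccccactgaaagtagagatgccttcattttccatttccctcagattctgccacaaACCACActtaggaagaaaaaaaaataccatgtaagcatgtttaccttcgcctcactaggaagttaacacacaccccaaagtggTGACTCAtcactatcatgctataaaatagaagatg
Mmp12: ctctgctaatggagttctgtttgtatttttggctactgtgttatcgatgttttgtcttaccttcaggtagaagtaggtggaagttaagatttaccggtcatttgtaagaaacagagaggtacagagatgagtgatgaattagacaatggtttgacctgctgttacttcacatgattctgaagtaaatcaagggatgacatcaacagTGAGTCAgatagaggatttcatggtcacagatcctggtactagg
Mmp14: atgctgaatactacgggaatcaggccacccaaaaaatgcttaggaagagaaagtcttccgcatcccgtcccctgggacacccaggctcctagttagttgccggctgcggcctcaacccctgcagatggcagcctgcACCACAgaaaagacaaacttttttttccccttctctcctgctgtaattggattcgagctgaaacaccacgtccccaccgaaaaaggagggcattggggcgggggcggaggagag

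In Mmp13 the RUNX core lay 118 to 113 bases before the start and the AP-1 core 35 to 29 bases before it. Of the 45 genes, 30 had a promoter entry, with 32 windows in all. The RUNX core was found in 4 of these 32 windows (of Mmp13, Mmp14, Mmp23 and Mmp27), against 14.0% of all 32851 promoter windows. The AP-1 core was found in 3 (of Mmp12, Mmp13 and Mmp3), against 6.75%. Only 1 of the 32, that of Mmp13, held both, as did 1.01% of all windows. Adamts16, Adamts5, Mmp17 and Mmp9, the other genes lower in every cKO mouse, had no promoter entry and were not searched. Of the other genes with a RUNX core, Mmp14 and Mmp23 overlapped between genotypes and had no clear direction. Their log2 differences were 0.15 and -0.11 (edgeR adjusted p = 0.427 and 0.629), and Mmp27 was too low to test. These matches describe letters in the reference and are not shown to be bound.

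Mmp13 lies at one end of a cluster of MMP genes on chromosome 9, of which 5 are among the genes described here, within 309.4 kb and on the same strand. Mmp12, the macrophage elastase, starts 71.9 kb beyond Mmp13 (7344381 to 7369499). Its levels were low in all mice, with 0.130, 0.271 and 0.625 CPM (7, 18 and 37 counts) for controls against 2.58, 5.66 and 0.849 CPM (173, 354 and 53 counts) for cKO mice. Every cKO mouse was above every control, but cKO 3 exceeded control 3 by little and the cKO mice spread 6.67-fold. The depth-scaled ratio of the summed counts was 8.75, with a 95% Clopper-Pearson interval of 6.72 to 11.6 that covers counting error only. The log2 difference of 3.13 (SE 0.784) did not pass (edgeR adjusted p = 0.122), while DESeq2 gave an adjusted p of 0.000261, the lowest of alternatives that ran up to 0.253. The log2 difference was 2.32 without cKO 2 and 3.87 without control 3. All 8 macrophage markers were above 0 in every mouse. Of these, 7 of 8 had no overlap and were higher in cKO mice, against 11.1% of all tested genes. Their sums were 470.9, 458.9 and 349.9 CPM in controls 1 to 3 and 541.4, 656.7 and 706.5 CPM in cKO 1 to 3. Within groups Mmp12 did not follow these sums: control 3 had the lowest control sum but the highest control Mmp12. Likewise, cKO 3 had the highest sum but the lowest Mmp12 of the cKO mice. What part these markers had in the Mmp12 difference was not tested.

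Mmp8, the neutrophil collagenase, lies further along the cluster (7558456 to 7568485) and was picked out after its values were seen. It was at 0.484, 0.406 and 0.456 CPM in controls 1 to 3 against 3.48, 1.38 and 0.240 CPM in cKO 1 to 3. The groups overlapped, since cKO 3 was the lowest of all 6 mice. The log2 difference of 1.92 (SE 0.801, edgeR adjusted p = 0.281) was 0.85 without cKO 1. The summed neutrophil markers were also high in cKO 1 and cKO 2 and not in cKO 3, with Camp, Elane and Mpo at 0 in at least 1 library, and their part in the Mmp8 values was not tested. Mmp3, stromelysin-1, and Mmp27 failed the filter. The 3 controls held 0, 1 and 3 counts of Mmp3 and the 3 cKO mice 13, 15 and 3, a depth-scaled ratio of 7.25 (95% counting interval 2.56 to 28.3), and Mmp27 had 8 counts in each group.

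**Figure D2:**
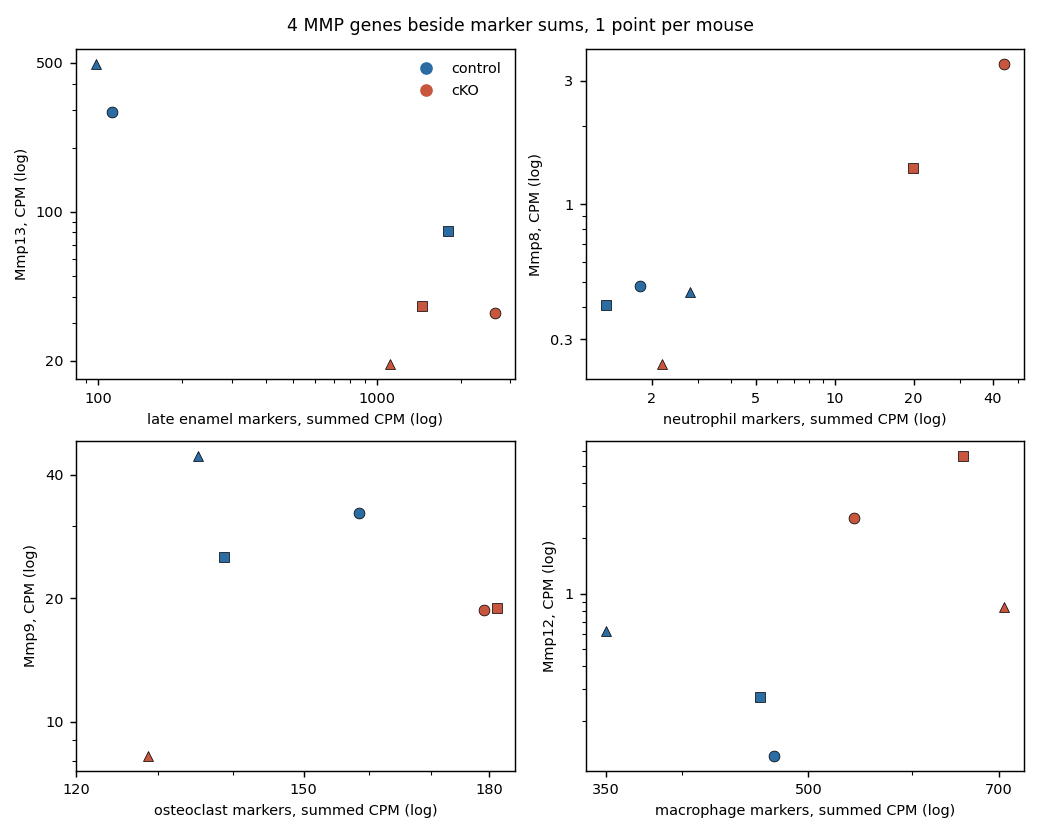
Level of 4 MMP genes (vertical axes, CPM, log scale) against the summed CPM of a marker list (horizontal axes, log scale), with 1 point per mouse: circle, square and triangle for mouse 1, 2 and 3 of each group. Mmp13 is low in the 4 libraries with high late enamel markers and lowest in the cKO mice, and Mmp8 is high in the 2 libraries with high neutrophil markers. Mmp9 is lower in every cKO mouse while the osteoclast sums overlap. Mmp12 and the macrophage sums are higher in every cKO mouse, but within each group Mmp12 does not follow the order of the sums.

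The gelatinases differed from each other. Mmp9, made chiefly by osteoclasts and neutrophils (chromosome 2, 164940780 to 164955850), was at 32.3, 25.2 and 44.5 CPM in controls 1 to 3 against 18.7, 18.9 and 8.26 CPM in cKO 1 to 3. All cKO mice were below all controls, and cKO 3 was the lowest. The log2 difference was -1.15 (SE 0.337, edgeR adjusted p = 0.158). The 7 osteoclast markers, all detected in every mouse, summed to 135.2 to 158.4 CPM in controls and 128.7 to 181.4 CPM in cKO mice, so the sums overlapped. None of the 6 tested was called by edgeR or DESeq2. Ctsk, at 98.1 to 143.0 CPM, made up most of each sum. Acp5 (14.9 CPM), Atp6v0d2, Calcr and Oscar were lowest in cKO 3, whereas Ctsk, Ocstamp and Dcstamp were not. The part of these markers in the Mmp9 difference was not tested. Mmp2, the gelatinase of mesenchymal cells (chromosome 8, 92827291 to 92853420), was at 439.4, 411.0 and 357.1 CPM in controls 1 to 3 against 378.4, 410.0 and 468.8 CPM in cKO 1 to 3. Its groups overlapped throughout, with a log2 difference of 0.06 (SE 0.110).

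The membrane-type MMPs that were tested had log2 differences between -0.48 and 0.53. Mmp14, which activates pro-Mmp2 and cuts collagen at the cell surface (chromosome 14, 54431612 to 54445364), was at 524.4, 518.9 and 457.4 CPM in controls 1 to 3 against 568.1, 516.9 and 575.7 CPM in cKO 1 to 3, and the groups overlapped (log2 difference 0.15, SE 0.0846, edgeR adjusted p = 0.427). Mmp15 was slightly higher in every cKO mouse, at 46.6, 47.7 and 43.5 CPM against 40.1, 38.0 and 42.1 CPM (log2 difference 0.20, SE 0.0627, adjusted p = 0.188 by edgeR). Mmp17, which is anchored to the membrane by a lipid, was lower in every cKO mouse, at 6.34, 6.27 and 6.04 CPM against 9.36, 7.76 and 8.94 CPM. The 3 cKO mice lay within 1.05-fold of each other, and the log2 difference was -0.48 (SE 0.105, edgeR adjusted p = 0.0977, DESeq2 adjusted p = 0.00364, alternatives up to 0.242). Mmp16 and Mmp25, also of the membrane type, had log2 differences of 0.53 (SE 0.201) and 0.29 (SE 0.146). The groups overlapped for Mmp16, while Mmp25 was higher in every cKO mouse. Mmp19, a secreted MMP, was higher in every cKO mouse, at 11.2, 12.8 and 15 CPM against 9.84, 8.75 and 5.73 CPM (log2 difference 0.68, SE 0.208, edgeR adjusted p = 0.173, DESeq2 adjusted p = 0.0262, alternatives up to 0.392). Of its exonic bases 28.3% are shared with other genes, chiefly Tmem198b on the opposite strand, and whether counting used strand is not given in the sources used here.

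**Figure D3:**
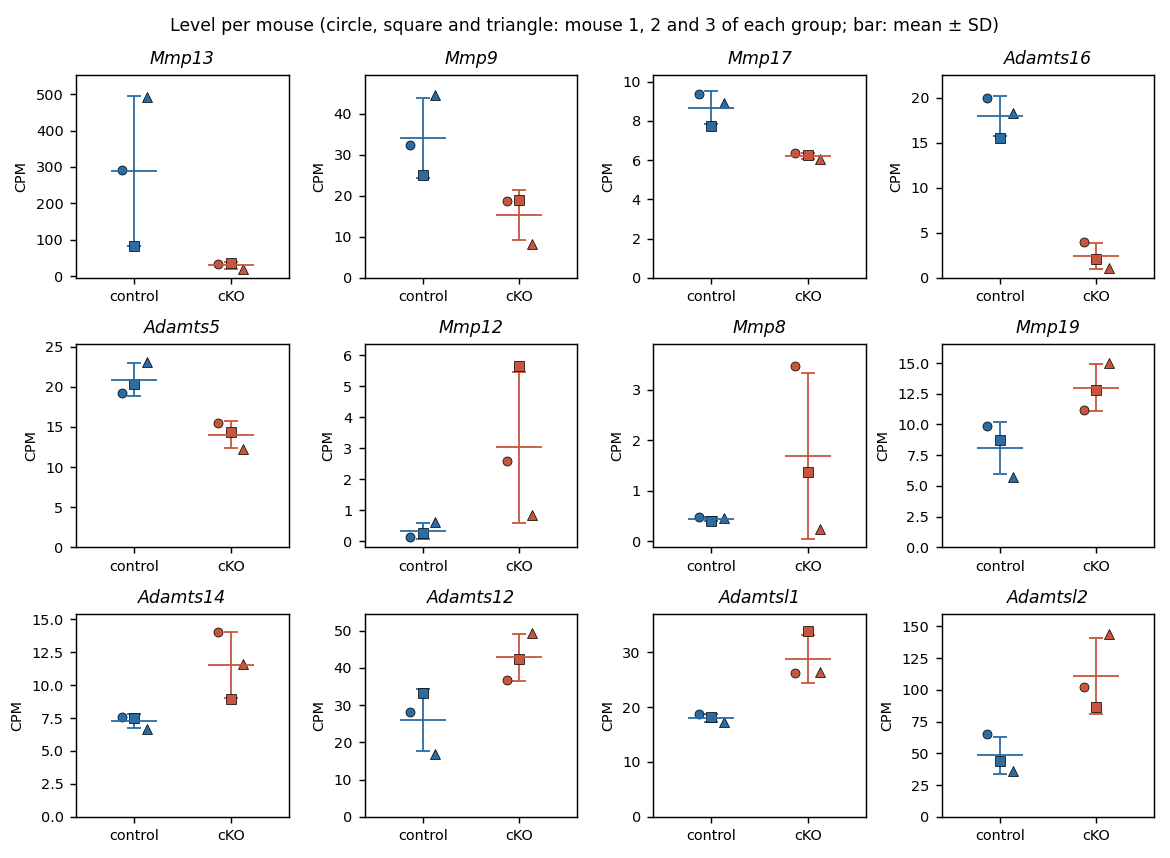
CPM (vertical axes, linear from 0) of 12 genes in control and cKO mice, with 1 symbol per mouse and bars for mean ± SD. Mmp13, Mmp9, Mmp17, Adamts16 and Adamts5 are lower in every cKO mouse, Mmp8 overlaps, and the other 6 genes are higher in every cKO mouse.

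Among the ADAMTS proteases Adamts16 stood furthest from 0. Adamts16, a secreted protease able to cut fibronectin (chromosome 13, 70727802 to 70841811), was at 19.9, 15.6 and 18.3 CPM in controls 1 to 3 against 3.93, 2.11 and 1.10 CPM in cKO 1 to 3. The controls lay within 1.28-fold of each other, the cKO mice within 3.55-fold, and the highest cKO value was far below the lowest control. The means were 17.9 ± 2.20 and 2.38 ± 1.43 CPM (SD, n = 3 each), a mean level 7.53-fold lower in cKO mice, with a log2 difference of -2.91 (SE 0.402). It had the lowest p of the 41 genes but did not pass (edgeR adjusted p = 0.0614), while DESeq2 gave an adjusted p of 1.18e-12, and over the alternatives it ran up to 0.153. Leaving out 1 mouse at a time gave log2 differences from -3.47 to -2.57. Smooth muscle genes were lower in the same mice: of 5 pericyte and smooth muscle markers, none at 0 in any library, Cnn1 (log2 difference -2.86), Acta2 (-1.26) and Myh11 (-0.79) were lower in every cKO mouse, Notch3 was higher in every one and Rgs5 overlapped. The 5 summed to 834.7 to 971.5 CPM in controls and 757.1 to 872.4 CPM in cKO mice. DESeq2 called these 3 lower and Notch3 higher and edgeR called none, and their part in the Adamts16 difference was not tested.

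Of the proteoglycan-cutting ADAMTS genes, Adamts5, the main aggrecanase of mouse cartilage (chromosome 16, 85856173 to 85901828), was lower in every cKO mouse. It was at 19.2, 20.3 and 23.1 CPM in controls 1 to 3 against 15.6, 14.4 and 12.2 CPM in cKO 1 to 3, with a log2 difference of -0.57 (SE 0.113, edgeR adjusted p = 0.0878, DESeq2 adjusted p = 0.000887, alternatives up to 0.208). Its neighbour Adamts1, on the same chromosome (85793827 to 85803113), was higher in every cKO mouse, with a log2 difference of 0.26 (SE 0.0975, edgeR adjusted p = 0.242). Adamts9, which cuts versican, was among the most abundant, at 273.4, 291.8 and 268.6 CPM for controls 1 to 3 against 323.6, 276.3 and 232.7 CPM for cKO 1 to 3. Its cKO values lay on both sides of the controls (log2 difference near 0, SE 0.118, turning sign under most alternatives).

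The procollagen N-proteinases, which trim fibrillar procollagens so that fibrils can form, were Adamts2, Adamts3 and Adamts14. Adamts14 was higher in every cKO mouse, at 14, 8.96 and 11.6 CPM against 7.60, 7.50 and 6.66 CPM (log2 difference 0.67, SE 0.166, DESeq2 adjusted p = 0.00663, alternatives up to 0.291). It did not pass with edgeR. Adamts2, the most abundant of the 3, measured 126.2, 119.1 and 127.0 CPM and 147.2, 124.9 and 114.1 CPM, with overlapping groups and a log2 difference of 0.05 (SE 0.0946). Adamts3 had one of 0.23 (SE 0.172).

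Adamts12, a protease of cartilage oligomeric matrix protein, was higher in every cKO mouse, at 36.7, 42.3 and 49.4 CPM against 28.2, 33.2 and 16.9 CPM (log2 difference 0.71, SE 0.237, edgeR adjusted p = 0.200, DESeq2 adjusted p = 0.0336, alternatives up to 0.428). Its paralogue Adamts7 overlapped between groups (0.30, SE 0.225). Adamts10, which acts on fibrillin, was at 172.5, 191.7 and 145.1 CPM in controls 1 to 3 against 202.1, 197.0 and 265.7 CPM in cKO 1 to 3. The groups were separate by a small gap, and the log2 difference was 0.38 (SE 0.145, edgeR adjusted p = 0.242). The related Adamts6 had one of 0.52 (SE 0.234), also without overlap.

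ADAMTSL genes had the highest median of the 4 families. Adamtsl2, a fibrillin-binding protein that limits TGF-beta signalling (chromosome 2, 27079379 to 27108981), was at 64.8, 43.8 and 36.2 CPM in controls 1 to 3 against 102.3, 86.3 and 144.0 CPM in cKO 1 to 3. The cKO mean was 2.30 times that of controls, with a log2 difference of 1.20 (SE 0.256, edgeR adjusted p = 0.0935, DESeq2 adjusted p = 7.66e-05, alternatives up to 0.224). Summed odontoblast markers were also higher in cKO mice, at 6206 to 12270 CPM against 2898 to 4930 CPM, with Dspp and Dmp1 of the 4 higher in every cKO mouse and none at 0. The 5 osteoblast markers, none at 0, summed to 9296 to 16650 CPM in controls and 19120 to 35900 CPM in cKO mice, with Bglap (log2 difference 1.29), Col1a1 (1.08) and Ibsp (0.40) higher in every cKO mouse. The part of either list in the Adamtsl2 difference was not tested. Adamtsl1, or punctin (chromosome 4, 85514172 to 86428385), was higher in every cKO mouse, at 18.7, 18.2 and 17.2 CPM against 26.3, 33.8 and 26.4 CPM (log2 difference 0.68, SE 0.109, edgeR adjusted p = 0.0669, DESeq2 adjusted p = 1.72e-05, alternatives up to 0.184). Adamtsl4, which supports fibrillin microfibrils, was higher in every cKO mouse, at 14.6, 16.8 and 13.1 CPM against 11.5, 12.5 and 9.36 CPM (0.42, SE 0.137, edgeR adjusted p = 0.196). Adamtsl5 overlapped, at 13.7, 13.2 and 16.3 CPM and 17.0, 15.1 and 12.8 CPM (0.05, SE 0.131).

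The 4 inhibitors had log2 differences between -0.02 and 0.40. Timp2, which also takes part in Mmp2 activation, was at 561.3, 491.7 and 496.9 CPM in controls 1 to 3 against 523.2, 535.9 and 476.5 CPM in cKO 1 to 3 (log2 difference -0.01, SE 0.0847). Timp3, the inhibitor bound to matrix and the main one for ADAMTS proteases, measured 477.7, 421.4 and 340.4 CPM against 457.5, 495.2 and 624.6 CPM, so that control 1 lay above cKO 1 (0.35, SE 0.159, edgeR adjusted p = 0.317). Of the Timp3 exonic bases 21.3% are shared with Syn3 on the opposite strand. Timp1 (chromosome X, 20870166 to 20874735) was higher in every cKO mouse by a narrow margin, at 12.1, 9.17 and 11.7 CPM against 7.35, 9.03 and 8.56 CPM (0.40, SE 0.136, edgeR adjusted p = 0.207). The lowest Timp1 value was that of the male control 1, without which the log2 difference was 0.32. Timp4 was near the limit of measurement, with 58 counts in controls and 61 in cKO mice.

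Scaled by exon length, the genes of highest level were, in order, Timp2 (132.0 CPM per kb of exon over the 6 mice), Mmp2 (121.9), Mmp14 (88.4), Mmp13 (59.5) and Timp3 (57.6). The ranges over mice of Timp2 and Mmp2 overlapped, as did those of Mmp14 and Mmp13 and of Mmp13 and Timp3, while Mmp2 and Mmp14 were separate. The ADAMTS genes of highest level were Adamts10 (23.7), Adamts9 (18.5) and Adamts2 (13.5), with overlapping ranges for each neighbouring pair. Mmp13 had the widest range of these 8 genes, from 7.20 to 184.0 CPM per kb.

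**Figure D4:**
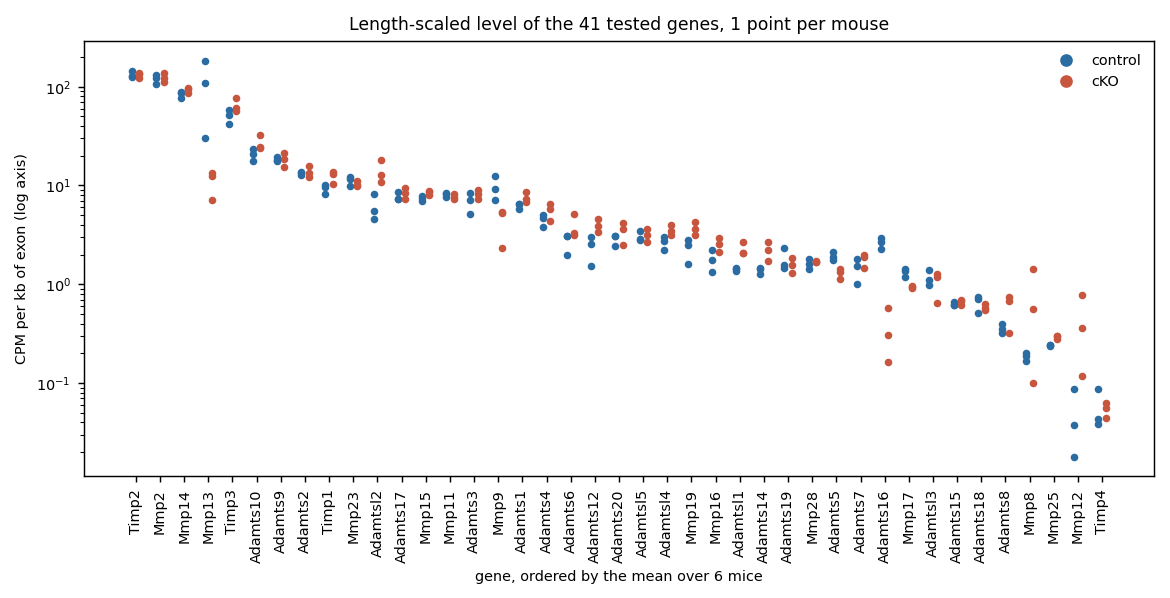
CPM per kb of exon (vertical axis, log scale) of the 41 tested genes, ordered by their mean, with 1 point per mouse in control (blue) and cKO (red). Timp2, Mmp2 and Mmp14 are the most abundant with close genotypes, and Mmp13, Adamts16, Mmp8 and Mmp12 show the widest gaps or spread.

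Summed over the 17 MMP genes, the length-scaled level was 373.3, 279.2 and 412.6 CPM per kb for controls 1 to 3 against 263.0, 264.7 and 281.1 CPM per kb for cKO 1 to 3, so control 2 lay just below cKO 3. Mmp13 made up 29.3%, 10.9% and 44.6% of the control sums and 4.75%, 5.10% and 2.56% of the cKO sums. Without Mmp13 the sums were 263.9, 248.8 and 228.6 against 250.5, 251.2 and 273.9 CPM per kb, which overlapped. The ratio of summed MMP to summed TIMP level was 1.77, 1.48 and 2.31 for controls against 1.29, 1.27 and 1.32 for cKO mice. The cKO ratios were below all 3 control ratios. With Mmp13 left out of the sum, the ratios were 1.25, 1.32 and 1.28 for controls against 1.23, 1.20 and 1.29 for cKO mice, and they overlapped.

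The 17 tested genes not described by a rule of size or test had log2 differences from -0.19 (Adamts19) to 0.69 (Adamts8) and edgeR adjusted p from 0.242 to 0.831. Besides Adamts1, Adamts3, Adamts6, Adamts7 and Mmp23, they were Adamts4, Adamts8, Adamts15, Adamts17, Adamts18, Adamts19, Adamts20, Adamtsl3, Mmp11, Mmp16, Mmp25 and Mmp28. The flattest were Mmp11 (stromelysin-3, log2 difference -0.05, SE 0.0724), Adamts15 (0.05, SE 0.0996) and Mmp28 (0.08, SE 0.112). Of the 4 genes that failed the filter, Adamts13, which cuts von Willebrand factor, had 23 and 14 counts in controls and cKO mice, and Mmp24 had 21 and 17.

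Other genes of matrix breakdown were read from a list of 29, of which 28 were tested. In that list 1 gene rose and 0 fell by edgeR (8 at an unadjusted p under 0.05), and DESeq2 called 6 higher and 1 lower. The serine protease Htra1 rose from 53.2 ± 3.44 to 92.4 ± 4.98 CPM (SD, n = 3 each; log2 difference 0.80, edgeR adjusted p = 0.0385), a call lost without any 1 mouse except control 2 (adjusted p up to 0.116). Pcsk6, a convertase that activates precursors, was at -0.65 (edgeR adjusted p = 0.0614), the cysteine protease Ctss at 0.42 (0.0669) and the membrane protease Adam15 at 0.25 (0.0878). Among 17 matrix substrates, edgeR called 0 and 9 had an unadjusted p under 0.05 (8 higher, 1 lower), while DESeq2 called 5 higher and 0 lower. The proteoglycan Bgn had a log2 difference of 0.84, elastin (Eln) 0.45, the brain-type proteoglycan Bcan 1.27 and decorin (Dcn) 0.78, with edgeR adjusted p from 0.0669 to 0.138. Of 13 RUNX, AP-1 and ETS factors, edgeR called 0, with 5 at an unadjusted p under 0.05 (4 higher, 1 lower), and DESeq2 called Runx2 alone. Ets1, Fosl2 and Junb had log2 differences of 0.30, 0.30 and 0.54 (edgeR adjusted p from 0.166 to 0.240).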

How the data were processed

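RNA of the proximal incisor was measured in 3 control and 3 cKO mice, each with its own animal number in the labels and numbered here in accession order. Single-end reads of 75 cycles were made from RNA with an integrity number above 9.0, per the labels' protocols. STAR 2.6.1d, Partek and build mm10 are named, without their roles, per the submitters' processing notes. Annotation, counting settings and strandedness: not given in the sources used here. Deposited values are estimated counts per gene that the authors made, and 46.8% of them are whole numbers (tolerance 1e-09). A second deposited table of scaled values was not used.

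Counts were rounded, filtered with filterByExpr (minimum count 10, minimum total 15), scaled by TMM and tested with edgeR 4.0.16 (quasi-likelihood F-test, R 4.3.3) on all 6 libraries without covariates. The test was two-sided, with Benjamini-Hochberg adjustment over 19264 genes and a threshold of 0.05. SE was taken from the difference and its F statistic. DESeq2 1.42.0 was an alternative on the same filtered genes, and genes to which it gave no adjusted p, Timp4 among them, were left out of its counts and shares. CPM divides by TMM-scaled library sizes. Exon lengths and shared exonic bases came from GENCODE M21 (GRCm38), whose start matched the deposited one for 44 of 45 genes. Table ends were reduced by 1. Promoters are RefSeq entries of GRCm38.p6, in which 250 bases before the start were searched. For 22 of the 32 entries, bases just after the start were found in a GENCODE transcript of the same gene. The starts of the other entries were not checked further. Protein sequences were not analysed here.

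Libraries of a group differed far beyond counting noise (chi-square per degree of freedom 49.1 to 80.6), so none was a repeat. The tests were checked on simulated counts in which all genes had a common dispersion (spread between mice beyond counting error). That check does not cover a spread that differs between genes. Genes with values per mouse were Mmp13, Mmp12, Adamts16, the TIMPs, those called by either tool, the 12 of lowest p and the 3 of highest length-scaled level per protease family. The genes, lists and rules were chosen with earlier results of these data known. Alternatives were DESeq2, RLE or upper-quartile scaling, no filter, a filter of 1 CPM in 3 libraries, and leaving out each mouse.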

Additional observations from a re-analysis of the deposited data

How the results depend on the processing

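The count of 5 genes called among all genes was 1333 with DESeq2 and ran from 0 to 72 when 1 mouse was left out: 0 without control 1, cKO 1 or cKO 2 (3103, 3278 and 2700 at an unadjusted p under 0.05), 3 without control 3, 8 without cKO 3 and 72 without control 2. Among the metalloproteases and TIMPs the count of 0 (18 at an unadjusted p under 0.05) was 10 with DESeq2, and from 0 to 1 with 1 mouse left out, the 1 being Mmp13 without control 2. Among other matrix proteolysis genes the count of 1 was 7 with DESeq2 and 0 to 1 with 1 mouse left out. Of 24 genes followed through 11 alternatives, 18 kept their sign in all that could be run, among them Mmp13, Mmp12, Adamts16, Adamts5, Adamtsl1 and Adamtsl2. The other 6 had log2 differences near 0 that turned sign. With 1 mouse left out they ran from -0.048 to 0.055 (Timp2), -0.24 to 0.41 (Timp4), -0.030 to 0.13 (Mmp2), -0.12 to 0.11 (Adamts9), -0.051 to 0.13 (Adamts2) and -0.048 to 0.15 (Adamtsl5). Adamts9 was also at 0.0007 with DESeq2 and with RLE scaling, 0.0040 with upper-quartile scaling, 0.0065 with no filter and 0.0032 with the 1 CPM filter. The family medians stayed above 0 throughout. The ADAMTS median of 0.24 was 0.086 without control 3 and 0.15 without cKO 3. The TIMP median of 0.17 was 0.37 without control 1, 0.25 without cKO 2, 0.092 without control 3 and 0.35 with the 1 CPM filter, which left Timp4, Mmp12 and Mmp8 untested. The MMP median of 0.11 was 0.19 without control 1 and 0.072 with the 1 CPM filter. Some of these medians were taken over other genes than the main ones. With the 1 CPM filter 3 TIMPs and 12 MMPs were tested, and 15 MMPs were tested without control 1. Beyond that, the cause of these moves was not tested. No paired analysis was possible because the labels give the mice no numbers shared between genotypes. The sequencing protocol speaks of pairs of samples without saying which mice form one, so the unpaired tests may leave out a pairing. With 3 mice per group, animal-to-animal spread limited precision for abundant genes, and counting error for Mmp3, Mmp24, Mmp27, Adamts13 and Timp4.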
